A study of Mus musculus with 11 samples.

Results

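The thyroid hormone genes described here were Dio2, Slco1c1, Thra, Thrb, Crym, Hr and Klf9, 7 of the 24421 genes listed for each sample, taken by name as genes of thyroid hormone uptake, deiodination, receptors and targets. They were compared in astrocytes sorted from 4 brain regions of adult mice, with 3 samples of olfactory bulb (OB), 3 of hippocampus (HC), 2 of cortex (CX) and 3 of brainstem (BS). Every mouse was 16 weeks old, of the C57BL/6 strain, and carried the Aldh1l1-eGFP transgene, an artificial chromosome in which regulatory sequence of Aldh1l1 drives green fluorescent protein, so that a cell was collected for its fluorescence and not for any other astrocyte property. No treatment is named, both sexes were used, and the labels do not say which samples came from separate animals, so that the p-values measure the spread between these samples, which may be technical.

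The brain receives thyroid hormone mainly as thyroxine, a prohormone that the transporter encoded by Slco1c1 carries across the capillary wall and into astrocytes. In astrocytes the type 2 deiodinase encoded by Dio2 removes an iodine from thyroxine and yields triiodothyronine, the form that binds the nuclear receptors encoded by Thra and Thrb. Crym encodes a protein that holds triiodothyronine in the cytosol, Hr encodes a corepressor that binds the receptors and is itself induced by the hormone, and Klf9 encodes a zinc finger transcription factor that is a direct target of the receptors in neural cells. Astrocytes are regarded as the main site where the brain makes its active hormone, and neurons take much of theirs up from them.

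Values are read counts divided by a size factor for each sample, termed normalized values below, and differences between regions are on the log2(value + 1) scale unless a ratio of means is given. A gene was called when limma with Benjamini-Hochberg adjustment over all 13875 genes tested gave an adjusted p under 0.05, and all 7 thyroid hormone genes passed the filter on low counts. Reads counted on genes lay between 2830746 and 14151670 per sample, and 3 reads, taken as the detection floor, corresponded to a normalized value between 1.10 and 6.31 (counting error only). All 10 astrocyte markers had reads in every sample. The ribosomal RNA gene Rn45s took between 0.966% and 2.93% of the reads in OB and HC samples and between 17.96% and 25.6% in CX and BS samples.

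Across the 4 regions, Dio2, Slco1c1, Crym and Hr differed and Thra, Thrb and Klf9 were not called. These were 4 of 7 genes in the F test over regions, where 16.5% of all tested genes were called, and edgeR and DESeq2 on the recovered reads also called 4 (14.9% and 22.1% of all genes). The 4 genes did not share a pattern. Dio2 and Crym were highest in CX and lowest in BS, Hr was highest in BS, and Slco1c1 was lowest in OB.

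**Figure D1:**
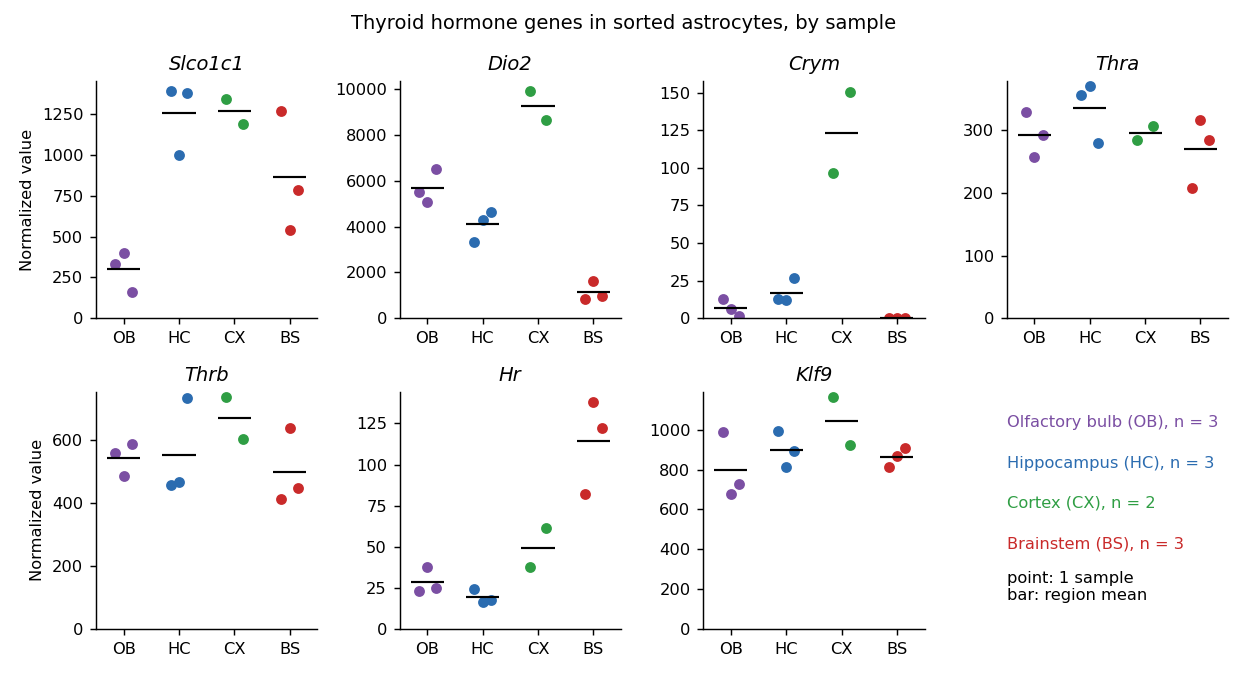
Normalized value (vertical axis, from 0) of each of the 7 thyroid hormone genes in OB, HC, CX and BS. Points are samples and the horizontal bars are region means. Dio2 in BS lies between 844 and 1631, below every sample of the other regions, and Hr in BS lies between 82.0 and 138, above every other sample.

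Promoter sequences were matched by symbol for Dio2, Slco1c1, Thrb and Klf9, from RefSeq on GRCm38.p6. Each runs from 250 bases before the start of the transcript to 50 bases after it and is written 5′ to 3′ on the strand of the gene. Those of Dio2 and Slco1c1, which are the enzyme and the transporter and had different regional patterns, and the first of the listed starts of Thrb are shown. The Dio2 promoter is chr12:90738989-90739288 on the minus strand, that of Slco1c1 is chr6:141524104-141524403 on the plus strand and that of Thrb is chr14:17660710-17661009 on the plus strand. Capitals mark the matches to TGACGTCA, the cyclic AMP response element, to TATAAA, and to AGGTCA, the hexamer that thyroid hormone receptors bind.
Dio2: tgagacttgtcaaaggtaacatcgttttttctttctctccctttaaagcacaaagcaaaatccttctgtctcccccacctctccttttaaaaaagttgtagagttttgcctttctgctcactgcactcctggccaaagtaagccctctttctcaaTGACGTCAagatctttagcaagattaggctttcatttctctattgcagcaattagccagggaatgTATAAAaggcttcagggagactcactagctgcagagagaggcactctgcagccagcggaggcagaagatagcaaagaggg
Slco1c1: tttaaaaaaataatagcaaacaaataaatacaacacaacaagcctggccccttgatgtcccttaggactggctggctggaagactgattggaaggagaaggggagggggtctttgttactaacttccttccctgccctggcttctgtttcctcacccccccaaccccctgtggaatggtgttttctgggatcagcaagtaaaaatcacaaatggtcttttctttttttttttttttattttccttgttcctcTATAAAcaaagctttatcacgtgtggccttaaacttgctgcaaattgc
Thrb: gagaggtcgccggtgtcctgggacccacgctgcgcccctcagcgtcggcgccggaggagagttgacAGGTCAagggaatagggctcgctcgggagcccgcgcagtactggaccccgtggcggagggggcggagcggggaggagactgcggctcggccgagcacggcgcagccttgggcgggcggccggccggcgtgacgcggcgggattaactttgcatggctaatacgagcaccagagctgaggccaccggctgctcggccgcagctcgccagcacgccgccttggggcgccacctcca

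The starts are those of RefSeq, and the GENCODE genes used for coordinates and exon lengths begin elsewhere for Dio2, Slco1c1 and Thrb. The Dio2 window lies wholly upstream of the GENCODE gene, which begins at 90738438 on the minus strand. The first Thrb window lies after the GENCODE start at 17660261. The Slco1c1 window holds the GENCODE start at 141524368, which lies downstream of the RefSeq start. TGACGTCA reads the same on both strands, and in the Dio2 promoter it begins 95 bases before the RefSeq start, with TATAAA at 30 bases before it. The Slco1c1 promoter holds TATAAA 2 bases after the RefSeq start, which is before the GENCODE start. The Thrb promoter holds AGGTCA 184 bases before its RefSeq start. Both strands of all 32851 promoters were searched for the same letters, and TGACGTCA was present in 1.79% of them, TATAAA in 13.6% and AGGTCA in 16.3%. The DR4 element, a direct repeat of the hexamer with any 4 bases between its copies, was present in 0.0152% of all promoters and in none of the 5 promoters of these 4 genes. TGACGTCA and TATAAA were searched for after the letters of the Dio2 promoter had been seen. The promoters also differed in composition. G and C made up 44.7% of the bases in Dio2 and 42.0% in Slco1c1, against 72.7% in the first promoter of Thrb and 63.3% in Klf9, where the median of all promoters was 52.7%. The second promoter of Thrb had 46.0%. CG dinucleotides numbered 3 in Dio2, 1 in Slco1c1, 37 in the first promoter of Thrb and 28 in Klf9, and the median promoter had 7.

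Dio2, on chromosome 12 of GRCm38 from 90724552 to 90738438 on the minus strand, had the highest mean of the 7 genes per kilobase of exon in every region. Its normalized value was 9898 and 8632 in CX samples and 5501, 5071 and 6516 in OB samples. In the HC it was 3344, 4306 and 4623, and in BS 844, 1631 and 972. The ranges of the 4 regions did not overlap, and the order of the means was CX, OB, HC and BS. Among all tested genes, samples of a pair of regions did not overlap in 18% (HC and BS) to 38.2% (CX and BS). The CX mean of 9265 ± 895 (SD, n = 2) was 8.06 times the BS mean of 1149 ± 422 (SD, n = 3). The OB mean of 5696 ± 742 (SD, n = 3) was 4.96 times and the HC mean of 4091 ± 666 (SD, n = 3) 3.56 times that of BS.

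BS was lower than each other region for Dio2. The log2 difference was 3.07 for CX minus BS (SE 0.26, limma adjusted p = 2.708e-06), 2.36 for OB minus BS (SE 0.23, adjusted p = 7.136e-06) and 1.88 for HC minus BS (SE 0.23, adjusted p = 0.000164). Neighbours at the upper end of the order were not called. OB minus HC was 0.48 (95% confidence interval -0.01 to 0.98, limma adjusted p = 0.2888) and OB minus CX was -0.71 (-1.26 to -0.15, adjusted p = 0.1598). The latter was called with only the OB and CX samples in the fit (limma adjusted p = 0.03276) and without BS replicate 2 (0.03551). HC was lower than CX by a log2 difference of -1.19 (-1.74 to -0.64, limma adjusted p = 0.03826), a call that was lost with edgeR (adjusted p = 0.06453), without the filter (0.06931), without the trend (0.1681), with only the HC and CX samples in the fit (0.09854), and when any OB, HC or CX sample or BS replicate 3 was left out, with adjusted p-values up to 0.346. Against the 3 other regions pooled, the BS had a log2 difference of -2.36 (SE 0.30, limma adjusted p = 0.0004669), which was called with each of the 11 samples left out, at adjusted p-values up to 0.005846.

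Astrocyte markers moved with Dio2 to some extent. The summed value of the 10 markers was 97652 to 286916 in BS samples, 234813 to 280678 in OB, 273835 to 466887 in HC and 562174 to 636700 in CX. The glutamate transporter Slc1a3 was the 1 of the 10 called lower by limma in BS than in the other regions pooled (5.42% of all genes were called). The median log2 difference of the list was -0.27 in that comparison. When each sample was set relative to its 10 astrocyte markers, an alternative chosen after seeing the data, Dio2 was still lower in BS by a log2 difference of -1.85 (limma adjusted p = 0.0001239). In these bulk samples, fewer cells of a type and less RNA per cell cannot be told apart. The sums of the choroid plexus markers were 72050 to 145901 in HC and 51727 to 244697 in BS, and the HC mean of Dio2 was 3.56 times the BS mean. The Rn45s share was high in CX and BS samples. The part of choroid plexus content and of the Rn45s share in the result for Dio2 was not tested.

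Slco1c1, on chromosome 6 from 141524368 to 141570177 on the plus strand, was low in OB and not separated among the other regions. Normalized values were 334, 400 and 163 in OB and 1393, 1004 and 1384 in HC. In the CX they were 1346 and 1190, and in BS 1272, 539 and 785. Every OB sample was below every sample of the other regions, whereas the BS samples spanned a range that reached into those of HC and CX. The OB samples did not overlap the others in 8.17% of all tested genes. The HC mean of 1260 ± 222 (SD, n = 3) and the CX mean of 1268 ± 110 (SD, n = 2) were 4.21 and 4.24 times the OB mean of 299 ± 122 (SD, n = 3), and the BS mean of 865 ± 373 (SD, n = 3) was 2.89 times it.

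The log2 difference of OB minus HC was -2.15 (SE 0.32, limma adjusted p = 0.0005185), that of OB minus CX was -2.17 (SE 0.36, adjusted p = 0.002071) and that of OB minus BS was -1.54 (SE 0.32, adjusted p = 0.004177). All of them were called with each sample left out. Relative to the 10 astrocyte markers, OB minus CX was -1.88 and was not called (limma adjusted p = 0.07912). HC and CX differed by -0.02 with a 95% confidence interval from -0.79 to 0.74, HC and BS by 0.61 (-0.07 to 1.298), and CX and BS by 0.64 (-0.13 to 1.40). Slco1c1 was the only one of the 7 genes called in OB against the other regions pooled, at a log2 difference of -1.93 (SE 0.31, limma adjusted p = 0.002553).

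Capillary endothelium and choroid plexus epithelium are known to express Slco1c1 too. In the F test over regions, none of the 6 endothelial markers was called by limma, edgeR or DESeq2. An unadjusted limma p under 0.05 was reached by 0 of 6, against 3980 of all 13875 genes. The median log2 difference of the 6 was -0.72 for OB minus HC, -0.12 for OB minus CX and -1.20 for OB minus BS. In these pairs none was called, with 1 of 6 at an unadjusted p under 0.05 in OB minus BS (3790 of all 13875 genes). The sums of the endothelial markers were 226 to 1046 in OB, 339 to 2279 in HC, 332 to 1263 in CX and 1047 to 1454 in BS, so that the OB range overlapped those of HC and CX and ended just below that of BS. All 9 choroid plexus markers were called among regions (16.5% of all genes). Their sum was 222 to 310 in OB, where Folr1 had no read and 5 to 8 of the 9 markers had reads in a sample. It was 1742 to 5037 in CX, far under that of HC, at values of Slco1c1 that were close to those of HC. The part of either cell type in the OB difference was not tested.

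**Figure D2:**
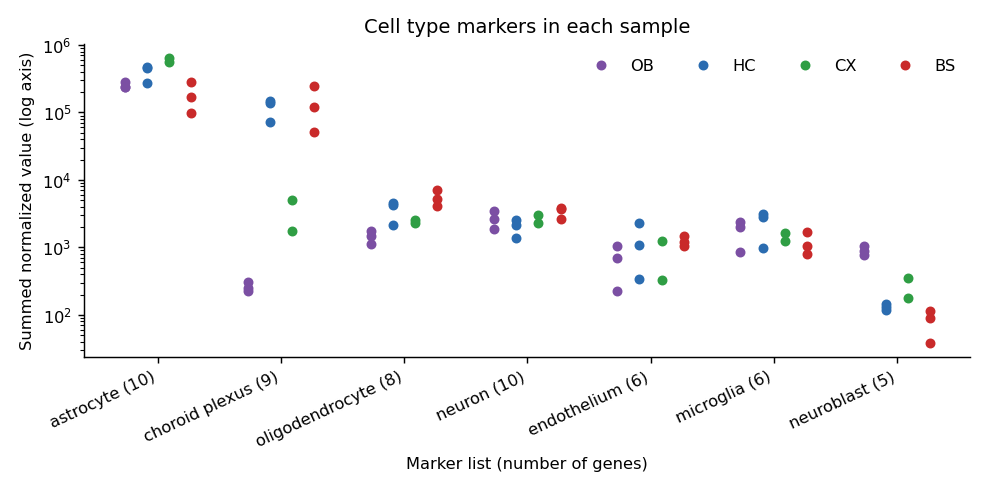
Summed normalized value (vertical axis, log scale) of each list of cell type markers in each sample, coloured by region. The choroid plexus sums lie between 222 and 310 in OB and between 51727 and 244697 in BS, and the endothelial sums of OB overlap those of HC and CX and lie below those of BS.

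The ratio of Dio2 to Slco1c1 varied between regions. Per kilobase of exon, Dio2 was 20.5 ± 13.2 (SD, n = 3) times Slco1c1 in OB, 6.52 ± 0.06 (SD, n = 2) times in CX, 2.98 ± 0.84 (SD, n = 3) times in HC and 1.47 ± 1.10 (SD, n = 3) times in BS. The lowest OB sample, at 11.3, was above the highest CX sample, at 6.56, and only the HC and BS samples overlapped. In BS replicate 1 the transporter exceeded the deiodinase, at a ratio of 0.592.

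The receptors were expressed in all regions, and neither was called. Thra, on chromosome 11 from 98740638 to 98769006 on the plus strand, had normalized values of 329, 258 and 292 in OB and 357, 371 and 280 in HC. It had 285 and 307 in CX and 208, 317 and 284 in BS. Samples of all regions overlapped, from 208 to 371, and the region means lay between 269.6 ± 55.6 (SD, n = 3) in BS and 336 ± 48.9 (SD, n = 3) in HC. Thra was not called among regions (limma F test, adjusted p = 0.6812), and the 95% confidence intervals of its 6 pairwise log2 differences lay within -0.63 and 0.77.

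Thrb, on chromosome 14 from 17660261 to 18038090 on the plus strand, had values of 560, 485 and 588 in OB and 456, 468 and 735 in HC. It had 737 and 604 in CX and 412, 637 and 448 in BS. The CX mean was the highest at 671 ± 94.3 (SD, n = 2) and the BS mean the lowest at 499 ± 121 (SD, n = 3), and samples of these 2 regions overlapped. Both CX samples were above every OB sample (no overlap of these regions in 37.5% of all tested genes), and every other pair of regions overlapped. The limma adjusted p over the 4 regions was 0.5877, and the pairwise intervals lay within -0.83 and 0.97.

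Per kilobase of exon, Thrb was 1.16 ± 0.10 (SD, n = 3) times Thra in OB, 1.07 ± 0.49 (SD, n = 3) times in HC, 1.42 ± 0.27 (SD, n = 2) times in CX and 1.16 ± 0.15 (SD, n = 3) times in BS, and single samples ranged from 0.786 to 1.64. Per kilobase, neither receptor gene exceeded the other in all samples. Not divided by length, the normalized value of Thrb was above that of Thra in each of the 11 samples. The ratios thus depend on the exon lengths, which are from GENCODE, whereas the reads were counted on UCSC gene models. Exons of Thra share 263 bases with Nr1d1, which lies on the other strand and encodes a nuclear receptor of the circadian clock. That is 5.70% of the exon bases of Thra, and the strand used in counting is not given in the sources used here. Nr1d1 itself differed among regions (limma adjusted p = 0.01736), from 903 ± 83.8 (SD, n = 3) in OB to 1748 ± 247 (SD, n = 2) in CX, and any reads shared with it cannot be told apart from those of Thra.

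Crym, on chromosome 7 from 120186380 to 120202111 on the minus strand, had the widest range of the 7 genes on the log2 scale. Its normalized value was 96.7 and 150.3 in CX and 12.5, 11.9 and 26.4 in HC. In the OB it was 13.0, 6.32 and 1.62, and no read was found in any BS sample. CX samples were above all others (no overlap of CX with the rest in 8.17% of all tested genes). OB and HC samples overlapped, and the OB values rested on 23 reads in all. A count of 0 allows a value of up to 6.31 in the shallowest BS sample, so that the lowest OB sample, at 1.62, could not be told from BS at this depth.

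The CX mean of Crym, 123.5 ± 37.8 (SD, n = 2), was 17.7 times the OB mean of 6.99 ± 5.74 (SD, n = 3) and 7.30 times the HC mean of 16.9 ± 8.22 (SD, n = 3). Against the mean floor of 3 reads per BS library, Crym was at least 23.9-fold higher in CX, at least 3.28-fold higher in HC and at least 1.35-fold higher in OB than in BS. CX minus BS and HC minus BS were called (limma adjusted p = 8.558e-05 and 0.004073) and remained so with each sample left out. OB minus BS was called (adjusted p = 0.02404) and was not without OB replicate 1 (0.1248), OB replicate 2 (0.07495), BS replicate 1 (0.05141) or BS replicate 3 (0.05093). This call was also lost with a pseudocount of 5 (log2 difference 1.14 in place of 2.69, limma adjusted p = 0.1337), with only the OB and BS samples in the fit (0.1095) and relative to the astrocyte markers (0.1022). OB minus CX was -4.24 (SE 0.84, limma adjusted p = 0.0075) and was not called without CX replicate 1 (0.07131) or CX replicate 2 (0.1061). HC minus CX was -2.85 (95% confidence interval -4.64 to -1.06) and was not called (limma adjusted p = 0.1323), although it was called by DESeq2 (adjusted p = 0.0103) and with a pseudocount of 5 (limma adjusted p = 0.02714). Against the other regions pooled, the BS was called (limma adjusted p = 0.02696) and was not with edgeR (0.08921), with a pseudocount of 5 (0.09682), with the replicate block (0.0523) or without BS replicate 1 (0.1056), 2 (0.05936) or 3 (0.1025).

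Neurons of the forebrain are known to express Crym. The summed value of 10 neuronal markers was 2323 to 2987 in CX, within the range of 1898 to 3410 in OB, and 1358 to 2519 in HC. In the BS, where Crym had no read, it was 2666 to 3871. Single markers did not follow the sum. Slc17a7, the vesicular glutamate transporter of forebrain neurons, had values of 143 and 218 in CX, 107 to 219 in HC and 56.5 to 163 in OB, against 10.52 to 21.03 in BS. It was lower in BS than in the other regions pooled by a log2 difference of -3.00 (SE 0.42, limma adjusted p = 0.0008344). Among the 10 markers in that comparison, limma called 2 lower in BS (Slc17a7 and Syt1) and 3 higher (Snap25, Stmn2 and Nefl), where 5.42% of all genes were called. With edgeR 2 of the 10 were called and with DESeq2 6 (4.16% and 8.34% of all genes). The median log2 difference of the 10 was 0.91. Slc17a7 was picked after its values had been seen, and the part of neurons in the result for Crym was not tested.

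Hr, on chromosome 14 from 70552212 to 70573548 on the plus strand, was highest in BS. Its normalized value was 82.0, 138 and 122 in BS and 37.7 and 61.3 in CX. In the OB it was 22.8, 37.9 and 24.8, and in HC 24.4, 16.4 and 17.6. No BS sample overlapped another region, as in 7.89% of all tested genes. The BS mean of 114 ± 28.95 (SD, n = 3) was 5.86 times the HC mean of 19.5 ± 4.28 (SD, n = 3), 4.005 times the OB mean of 28.5 ± 8.20 (SD, n = 3) and 2.30 times the CX mean of 49.5 ± 16.7 (SD, n = 2).

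HC minus BS was -2.48 (SE 0.41, limma adjusted p = 0.001936) and OB minus BS was -1.97 (SE 0.41, adjusted p = 0.004495), both called with each sample left out. CX minus BS was -1.20 (95% confidence interval -2.18 to -0.21, limma adjusted p = 0.1184) and, among the alternatives run, was called only when samples were set relative to the astrocyte markers (-1.94, adjusted p = 0.03841). No difference among OB, HC and CX was called. Against the other regions pooled, Hr was higher in BS by 1.97 (SE 0.40, limma adjusted p = 0.01165), a call lost without BS replicate 3 (0.07093). Hr thus had its highest values where Dio2 had its lowest, and over the 11 samples their Pearson correlation was -0.64, a description of samples that share regions and libraries.

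Neurons are known to express Hr. Of the 10 neuronal markers, 3 were called higher (Snap25, Stmn2 and Nefl) and 2 lower (Syt1 and Slc17a7) in BS than in the other regions pooled. Their sum overlapped between BS and both OB and CX, but not between BS (2666 to 3871) and HC (1358 to 2519). In OB minus BS limma called 6 of the 10, 3 higher and 3 lower in BS, where 15% of all genes were called. In HC minus BS it called 4 of the 10, 3 higher and 1 lower in BS, where 4.63% of all genes were called. The 8 oligodendrocyte markers summed to 4123 to 7030 in BS, 2149 to 4508 in HC, 2297 to 2528 in CX and 1127 to 1723 in OB. Against the other regions pooled, none of these 8 was called in BS by limma, edgeR or DESeq2. At an unadjusted limma p under 0.05 there were 4 (Mog, Mag, Mobp and Cnp, all higher), where 2954 of all 13875 genes had one. In OB minus BS, a pair in which Hr was called, limma called 4 of the 8, all higher in BS (5 with edgeR and 6 with DESeq2). In HC minus BS, the other such pair, limma called 0 of 8 (0 with edgeR and DESeq2), with 1 at an unadjusted p under 0.05 (2230 of all 13875 genes). In CX minus BS limma called 1 of the 8, higher in BS, and 3 of the 10 neuronal markers, 2 higher and 1 lower in BS (10.9% of all genes). The marker genes named here were picked after their values had been seen. The means of Hr were highest in BS and next in CX, where the Rn45s share of the reads was also high. It was 17.96% to 25.6% in CX and BS samples, against 0.966% to 2.93% in OB and HC samples. The part of the marker genes and of the Rn45s share in the result for Hr was not tested.

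Klf9 lies on chromosome 19 from 23141226 to 23168134 on the plus strand. Among the thyroid hormone genes it had the smallest ratio of the highest to the lowest sample, at 1.72. The ratio of its highest to its lowest region mean was 1.31, above the 1.25 of Thra. Normalized values were 990, 680 and 726 in OB, 994, 816 and 892 in HC, 1167 and 921 in CX and 814, 869 and 907 in BS. Both CX samples were above every BS sample (no overlap of these regions in 38.2% of all tested genes), and every other pair of regions overlapped. The region means lay between 799 ± 168 (SD, n = 3) in OB and 1044 ± 174 (SD, n = 2) in CX. Klf9 was not called among regions (limma adjusted p = 0.5115), and its pairwise log2 differences had 95% confidence intervals within -0.82 and 0.69. Klf9 also responds to glucocorticoids, and of 4 glucocorticoid targets (Fkbp5, Sgk1, Tsc22d3 and Per1) 1 was called among regions, Sgk1, where 16.5% of all genes were called.

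**Figure D3:**
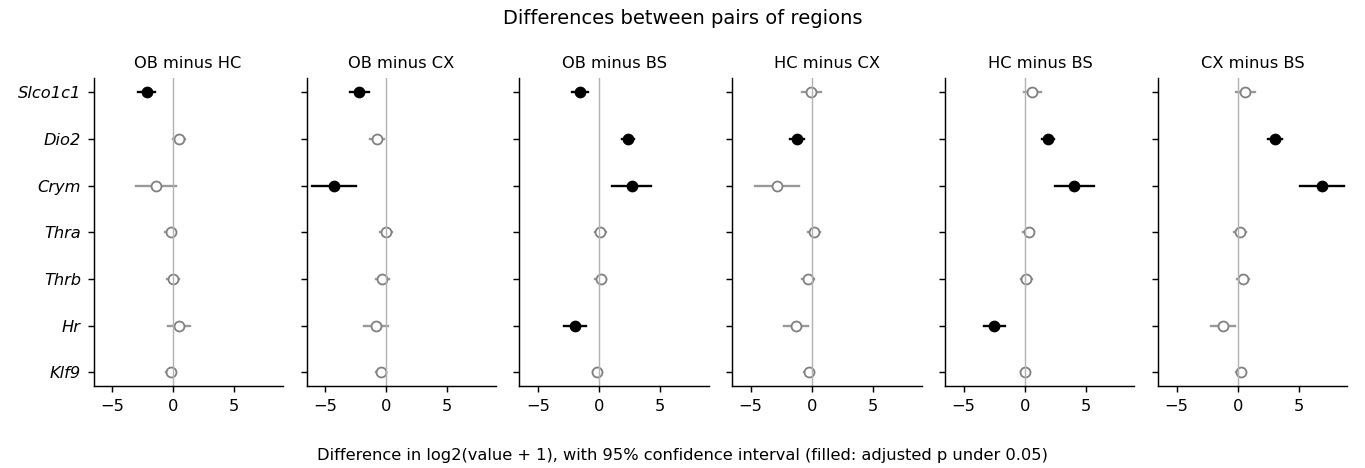
Difference in log2(value + 1) between each pair of regions (horizontal axis) for the 7 genes, with 95% confidence intervals. Filled points have a limma adjusted p under 0.05. Dio2 and Crym lie to the right and Hr to the left in the pairs with BS, Slco1c1 lies to the left in the pairs with OB, and Thra, Thrb and Klf9 stay near 0.

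Counted by pair of regions, OB minus BS called 4 of the 7 genes (Dio2, Slco1c1, Crym and Hr), where 15% of all genes were called. HC minus BS called 3 of 7 against 4.63% of all genes, and CX minus BS 2 of 7 against 10.9%. OB minus CX called 2 of 7 against 4.91%, OB minus HC 1 of 7 against 7.11%, and HC minus CX 1 of 7 against 1.23%. These comparisons share samples and are not independent of each other.

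With each region set against the other regions pooled, as in the design of the study, the BS differed at 3 of the 7 genes (Dio2, Crym and Hr; 5.42% of all genes) and OB at 1 (Slco1c1; 4.58%). None of the 7 was called in HC or CX by limma (0% and 0.0144% of all genes), edgeR (0% and 0.0144%) or DESeq2 (0.699% and 1%). At an unadjusted limma p under 0.05 there was 1 gene in HC (Hr; 789 of all 13875 genes) and 2 in CX (Dio2 and Crym; 1372 of all 13875). With thresholds after those of the study (p under 0.01, taken here as unadjusted, fold over 1.5, and a level over 5 in 2 replicates, applied here to normalized values and not to RPM), Crym was called in CX as well (1 of 7 genes, 2.77% of all), and the other counts were 1 in OB (8.04%), 0 in HC (1.28%) and 3 in BS (9.03%). In these fits the pooled samples include the BS, where Dio2 and Crym were low. With a mean fitted for each region, Dio2 in CX exceeded the average of the other regions by a log2 difference of 1.65 (limma adjusted p = 0.000736) and Crym exceeded it by 4.67 (adjusted p = 0.001844).

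**Figure D4:**
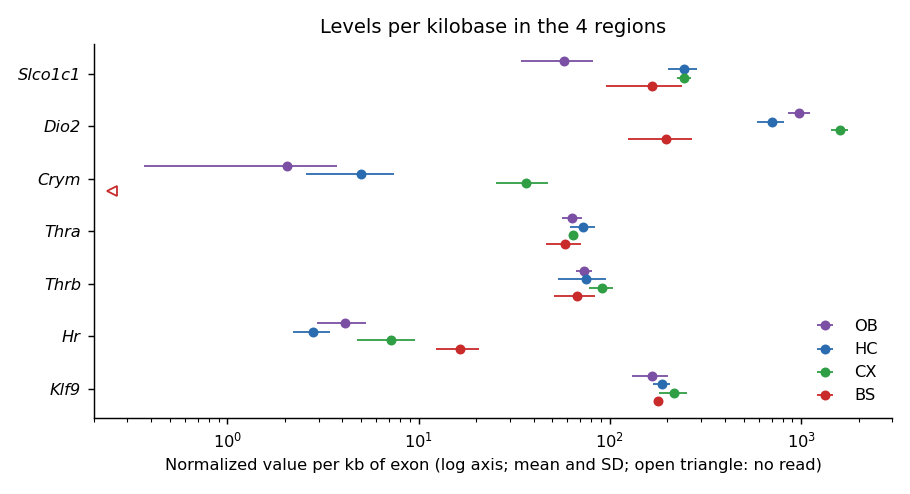
Normalized value per kilobase of exon (horizontal axis, log scale) of the 7 genes, as mean and SD in each region; the open triangle marks BS, where Crym had no read. Dio2 reaches 1593 in CX and 198 in BS, and Hr stays between 2.81 and 16.5.

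Levels of different genes were compared per kilobase of exon, which is the normalized value divided by exon length. The lengths are from GENCODE and the counts from UCSC gene models, so that these levels depend on the lengths used. In the CX, Dio2 was at 1593 ± 154 (SD, n = 2) per kilobase, Slco1c1 at 244 ± 21.2, Klf9 at 217 ± 36.1, Thrb at 90.6 ± 12.7, Thra at 64.1 ± 3.29, Crym at 36.4 ± 11.2 and Hr at 7.16 ± 2.42. In the BS, Dio2 was at 198 ± 72.6 (SD, n = 3), Klf9 at 179 ± 9.76 and Slco1c1 at 167 ± 71.9, and these levels differed by less than their spread. The OB was the region where Slco1c1 was at the level of the receptors, with 57.7 ± 23.6 (SD, n = 3) per kilobase against 63.6 ± 7.68 for Thra and 73.5 ± 7.23 for Thrb.

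The likeness of other genes to each member was described by Pearson's r of log2(value + 1) over the 11 samples, which share regions and libraries. Dio2 was most like Mcur1 (0.991), Mgll (0.987) and Mfap3l (0.986), and Slco1c1 most like Prelp (0.934), Gpc4 (0.932) and Timp2 (0.924). Mgll encodes monoglyceride lipase, which degrades an endocannabinoid. Crym was most like Ccdc50 (0.960), Dach1 (0.938) and Gfra1 (0.936), and Hr most like Dhx40 (0.935), Hotairm1 (0.933) and Meis1 (0.930). Hotairm1 is a long non-coding RNA of the Hoxa cluster, Meis1 encodes a cofactor of Hox proteins, and Dach1 encodes a transcriptional regulator. For the genes that were not called among regions, Thra was most like Frmpd3 (0.917), 4932416H05Rik (0.897) and Nmi (0.888), Thrb most like Daam2 (0.930), F3 (0.898) and Arhgef26 (0.895), and Klf9 most like Mkln1 (0.880), Pdap1 (0.876) and Zfp595 (0.862). Among the members, Dio2 and Crym were most alike, at 0.84, and Dio2 and Slco1c1 stood at -0.15.

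The wider pathway was described by 42 other genes, of which 41 were found in the files and 37 passed the filter. The F test called 10 of these 37 (27%, against 16.5% of all genes), and the median range between region means was 1.24 on the log2 scale, against 0.84 for all genes tested. The genes that were called belonged mostly to the targets. They were 8 of 16 targets, 2 of 12 receptor partners, 0 of the 4 transporters described and 0 of 5 factors of deiodination. For the transporters and the deiodination factors the F tests of edgeR and DESeq2 also called 0. Those with an unadjusted limma p under 0.05 were 1 transporter (Slco1a4) and 2 deiodination factors (Usp20 and Wsb1), where 3980 of all 13875 genes had one.

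The transporter Slco4a1, under the filter, had 19 reads in BS, 4 in HC, 2 in OB and 1 in CX.

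The other deiodinases were at or near 0. Dio1 had no read in any of the 11 samples and Dio3, which inactivates the hormone, had 13 reads in OB, 12 in HC, 2 in CX and none in BS. Dio2 was in this respect the only deiodinase gene that passed the filter.

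Among receptor partners, Tbl1x, a subunit of the corepressor complex, was higher in CX (639 ± 14.8, SD, n = 2) than in OB (377 ± 10.98, SD, n = 3; limma adjusted p = 0.03464) and BS (404 ± 81.3, SD, n = 3; adjusted p = 0.03675). Ncor1, the corepressor that the complex is built on, was 2383 ± 44.3 (SD, n = 2) in CX and 1457 ± 178 (SD, n = 3) in BS (limma adjusted p = 0.01499), and its F test was not called by edgeR (adjusted p = 0.06883). The pairs of Tbl1x missed the threshold with edgeR (adjusted p = 0.05101 and 0.05169). Region means of the retinoid X receptor Rxra, which pairs with thyroid hormone receptors, lay between 161 and 235 and it was not called (adjusted p = 0.3604).

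Targets of the hormone did not move one way. Nefh, a neurofilament subunit, had 251 ± 77.0 (SD, n = 3) in BS against 9.34 to 31.7 as means of the other regions, and Aldh1a1, an enzyme of retinoic acid synthesis, had 4703 ± 2518 (SD, n = 3) against 591 to 1140. Mbp, a myelin protein, was 49387 ± 14525 (SD, n = 3) in BS and 6250 ± 2248 (SD, n = 3) in OB, and Itpr1, a calcium channel of the endoplasmic reticulum, was lowest in OB at 383 ± 41.9 (SD, n = 3), against 1082 to 1484. Nefh, Aldh1a1 and Mbp were called higher in BS than in the other regions pooled (limma adjusted p = 0.001266, 0.000685 and 0.03428), and Itpr1 and Mbp lower in OB (0.001397 and 0.02435). With edgeR, Mbp in BS missed the threshold (adjusted p = 0.05103).

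Of the targets described, the other 4 called by the F test were Nrgn, Rasd2, Thrsp and Stard4. Nrgn, a postsynaptic protein of neurons, had 201 ± 2.97 (SD, n = 2) in CX and 125 ± 78.0 (SD, n = 3) in HC, against 20.9 ± 10.4 in OB and 19.2 ± 19.9 in BS. Rasd2, a small GTPase, had 110 ± 45.7 (SD, n = 2) in CX and region means between 10.1 and 23.2 elsewhere. Both were higher in CX than in BS (limma adjusted p = 0.002795 and 0.007624). Thrsp, a regulator of lipid synthesis, was higher in HC (592 ± 63.5, SD, n = 3) than in OB and BS (limma adjusted p = 0.01184 and 0.01612). Stard4 was higher in HC than in OB (adjusted p = 0.01604). These last targets, from Nrgn to Stard4, are named because they were called, after their values had been seen. Mbp is an oligodendrocyte gene and Nefh and Nrgn are neuronal genes, and the sums of both marker lists are given above with Hr and Crym. Their part in these results was not tested.

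**Figure D5:**
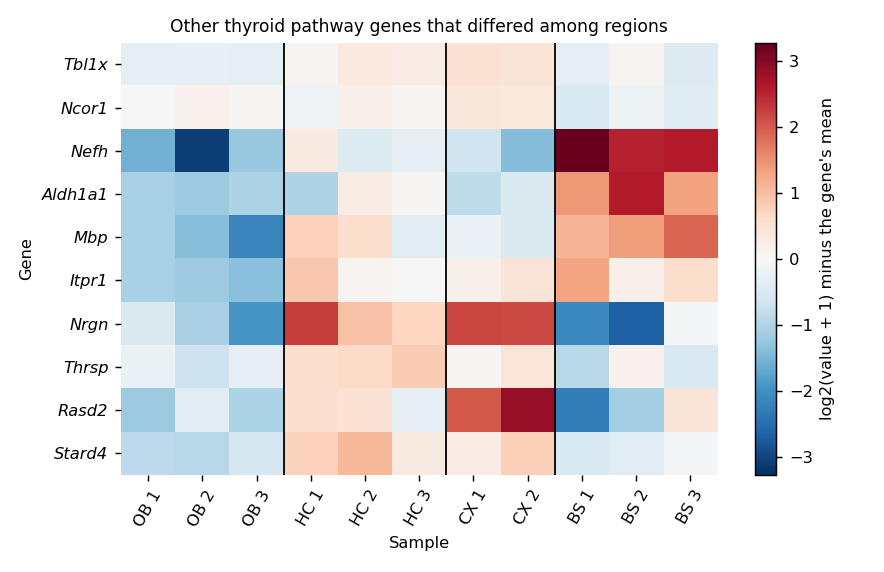
Other thyroid pathway genes called among the 4 regions (vertical axis) in each of the 11 samples (horizontal axis). Colour is log2(value + 1) minus the mean of the gene. Nefh, Aldh1a1 and Mbp are highest in BS samples, and Nrgn and Rasd2 have their highest means in CX.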

How the data were processed

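RNA of sorted cells had been made into libraries from 5 ng of total RNA with depletion of ribosomal RNA. The authors aligned reads with STAR 2.5.0a (mm10), built counts from UCSC gene models and divided them by DESeq2 1.20.0 size factors. The deposited unit is thus a signal, with a single scale factor per sample. Non-zero values were checked against the smallest step of their sample, and 100% were whole numbers of reads (tolerance 0.01 reads), which gave back the reads.

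Log2 values (pseudocount 1) were tested with limma 3.58.1 (R 4.3.3; trend on, two-sided) for genes kept by filterByExpr of edgeR on the reads. The first model had a mean for each region (F test and 6 pairs), and the second set each region against the others pooled. Confidence intervals use the moderated variance at 95%. Alternatives were edgeR 4.0.16 (TMM or RLE factors) and DESeq2 1.42.0 on the recovered reads, pseudocounts 0.25 and 5, TMM scaling, no filter, no trend, a replicate block, only the regions compared, thresholds after those of the study (p under 0.01, taken as unadjusted, fold over 1.5, and over 5 in 2 replicates, applied to the normalized values in place of RPM) and leaving out each sample. The test scripts were tested on simulated data. Tables were made in Python 3.11.15 with pandas 2.3.3, and plots with matplotlib 3.10.9.

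The members and gene lists were chosen with earlier results of these data known. The plan named other pathway genes when called, at most 4 per list by smallest p, and for each member the 3 genes of highest correlation. It also allowed deiodinases, transporters and receptor partners as levels. Beyond the plan, all 8 called targets were named, as were Slco1a4, Usp20 and Wsb1 for an unadjusted p under 0.05. Coordinates and exon lengths are from GENCODE on GRCm38. Of the pathway genes, 1 (March6) was not matched by symbol. Another 2 pathway genes are not reported here and are left out of the list counts. No pair of replicates was alike enough to be a single library. Promoters of Thra, Crym and Hr and protein sequences were not used here.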

Additional observations from a re-analysis of the deposited data

How the results depend on the processing

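With all 11 samples, the number of the 7 genes called among regions was 4 under every alternative that was run. The counts by comparison moved in several settings. For HC minus CX, with 1 gene called, it was 0 with edgeR (TMM or RLE factors), without the filter, without the trend and with only these regions in the fit, and 2 with DESeq2 and with a pseudocount of 5. For OB minus CX, with 2 genes called, it was 1 relative to the astrocyte markers and 3 with only these regions in the fit. A mean for each region gave 2 genes in OB, 1 in HC and 2 in CX against the others, in place of 1, 0 and 0, and thresholds after those of the study gave 1 in CX. The causes were not tested. Leaving out 1 sample at a time gave 1 to 3 genes for OB minus CX, 0 to 1 for HC minus CX, 3 to 4 for OB minus BS and 1 to 3 for the BS against the others, where the count of 1 came without BS replicate 3. Dropping 1 sample changed the call of 20 of the 847 single-gene results and the other alternatives changed 21 of 840, and no called difference changed sign. Most of these results were not called in the main fit, and the changes were mostly calls that were lost. These totals therefore do not give the share of calls that held. Signs of uncalled differences were not compared.

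Whether the replicate numbers pair the samples was not settled, and the main tests treated the samples as unpaired. Over 15 same-numbered pairs of samples from different regions, the correlation of deviations from the region means lay between -0.16 and 0.25. For pairs with other numbers it lay between -0.22 and 0.18, and 7 of 11 samples correlated best with their own number. The replicate block left the counts as they were, except that it gave 2 in place of 3 genes for the BS against the others, since Crym had an adjusted p of 0.0523, and 9 in place of 10 pathway genes. TMM scaling moved the median log2 difference of all genes by at most 0.04. With 2 or 3 samples per region and 3 reads worth up to 6.31, depth limited mainly Crym.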
